A study of Homo sapiens with 18 samples.

Results

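The difference between losing IKKα and inhibiting RAF was measured in WiDr, an established human colorectal cancer cell line. For each of 18132 genes the change with an shRNA (short hairpin RNA) against IKKα, taken against a control shRNA, had the change with AZ628, taken against vehicle, subtracted from it. The contrast was chosen by its groups and not by measured values, and it used 12 of the 18 arrays of the series, 3 in each of 4 groups. These were WiDr cells given vehicle, WiDr cells given AZ628, WiDr cells transduced with the control shRNA, and WiDr cells transduced with the shRNA against IKKα. The descriptions of the last group carry the word control as well, while the titles and the condition name shIKKa, which was used here. The other 6 arrays, vehicle and AZ628 in the colorectal line HT29, served as a second measurement of the AZ628 change. The labels gave no dose or time of AZ628, no hairpin sequence, no number of hairpins or clones and no time after transduction. The shRNA arm carried a vector and the AZ628 arm did not, and the work rests on 1 cell line. Nothing in the labels states whether a group's arrays stem from separate cultures. The p-values therefore reflect the variation among these arrays alone, and that variation may be technical.

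RAF kinases sit below RAS and activate MEK, which activates ERK. ERK signalling raises transcription of cyclin D1, MYC, ETS factors and of the phosphatases and Sprouty proteins that shut the pathway down again. AZ628 is a small molecule inhibitor of RAF kinases. IKKα, encoded by CHUK, is a catalytic subunit of the IKK complex, which releases NF-κB factors from their inhibitors, and it also has nuclear functions outside that pathway. The title of the series relates RAF-driven tumour growth to IKKα and sets NF-κB apart from it. The contrast therefore asks in which genes losing IKKα looked like blocking RAF and in which it did not.

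All values are log2 signals, so a difference of 1 is 2-fold. A positive difference means that a gene moved further up, or less far down, with IKKα shRNA than with AZ628. It can come from a rise with the shRNA, a fall with AZ628 or both. Many genes are therefore given with both changes, while others are given by the difference or by 1 change only. A gene passed at a limma adjusted p under 0.05 over all genes, and SE is limma's standard error.

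The shRNA lowered its target. CHUK read 9.67, 9.29 and 9.50 with vehicle, 9.07, 9.21 and 8.90 with AZ628, 9.68, 9.45 and 9.78 with control shRNA and 7.68, 7.23 and 7.65 with IKKα shRNA. The IKKα shRNA arrays lay below all others, and the AZ628 arrays lay below both control groups. CHUK fell by 2.12 with the shRNA (adjusted p = 4.11e-10) and by 0.43 with AZ628 (adjusted p = 0.00854), and the difference was -1.69 (SE 0.18, adjusted p = 3.52e-07). Arrays of 1 group correlated at 0.9975 to 0.9985 over genes (Pearson). The first principal component of the 12 arrays, with 63.0% of the variance, set AZ628 apart from the other groups, and the second, with 22.4%, set IKKα shRNA apart. Of 12 markers of colorectal epithelial lines the median signal was 11.84 to 12.10 across the 4 groups, and it was 4.11 to 5.63 for markers of fibroblasts, blood cells and endothelium. Of those 12 epithelial markers 8 were lower and 3 higher in the difference (median -0.55). Control shRNA and vehicle were not interchangeable, since 22.2% of genes passed between them, and results that turn on this choice of control carry both values.

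In all, 7688 of 18132 genes passed in the difference (42.4%), with 3640 higher (20.1%) and 4048 lower (22.3%). Most of these differences were small, and 71.8% of them were below 2-fold. At least 2-fold differences were found in 912 genes that were higher (5.03%) and in 1256 that were lower (6.93%). The median difference over all genes was 0.04. A gene that passed could do so in several ways. AZ628 alone moved 2882 of them (37.5%), the shRNA alone moved 1250 (16.3%), and 2165 (28.2%) passed in both comparisons with opposite signs. The same direction with a larger change under AZ628 was seen in 808 genes and with a larger change under the shRNA in 313. With only probe sets that bind 1 transcript, 7 of 38 genes named below that have one lost their call, namely CDK1, ERBB3, IFIH1, NOP16, PFAS, PSMB9 and VIL1. Among the 2-fold differences the oppositely moved genes made up 56.2%.

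Of the 4412 genes that passed in both comparisons, 2247 moved in the same direction, which is 50.9%. The 4412 genes were 69.8% of the shRNA list and 54.6% of the AZ628 list. Both comparisons raised 1052 genes (5.80% of all genes) and lowered 1195 (6.59%), while 2165 moved oppositely (11.9%). The comparisons shared no arrays. Over all genes their changes had a Pearson correlation of 0.00 and a Spearman correlation of 0.02, given as a description over genes that share the arrays of each group. By themselves the comparisons passed 2880 genes up (15.9%) and 3443 down (19.0%) for the shRNA, and 4249 up (23.4%) and 3830 down (21.1%) for AZ628.

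**Figure D1:**
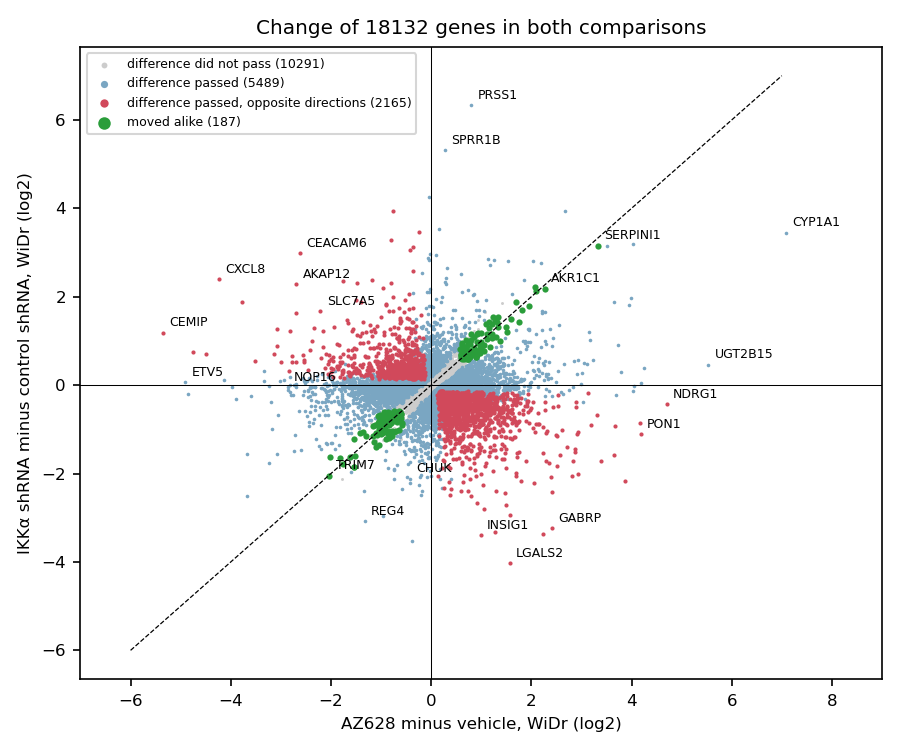
Each of 18132 genes is plotted by its log2 change with AZ628 against vehicle (horizontal) and with IKKα shRNA against control shRNA (vertical) in WiDr, and the dashed line marks equal changes. Red points are the 2165 genes that moved oppositely, green points are the 187 that moved alike by an interval of the difference within 1.5-fold, and the cloud shows no slope along the line.

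Several of the genes with the highest differences rose with the shRNA and fell with AZ628. CXCL8, the chemokine interleukin 8 that draws neutrophils, read 9.51, 9.69 and 9.69 with vehicle, 5.54, 5.36 and 5.30 with AZ628, 8.12, 8.24 and 8.48 with control shRNA and 10.55, 10.62 and 10.87 with IKKα shRNA. The 4 groups did not overlap, with AZ628 lowest, both controls between and IKKα shRNA highest. Its difference was 6.62 (SE 0.19, adjusted p = 2.33e-14), made of a rise of 2.40 with the shRNA and a fall of 4.23 with AZ628. CEACAM6, an adhesion protein of the carcinoembryonic antigen family that is often abundant in colorectal tumours, read 7.47, 7.30 and 7.48 with vehicle, 4.84, 4.88 and 4.70 with AZ628, 8.58, 8.79 and 8.77 with control shRNA and 11.54, 11.80 and 11.75 with IKKα shRNA. It followed the same order without overlap, and its difference was 5.59 (SE 0.12, adjusted p = 1.69e-15). CEACAM6 shares sequence with other CEACAM genes, and its 3 probe sets gave 1.89 to 5.59. AKAP12, a scaffold for protein kinases, NNMT, nicotinamide N-methyltransferase, and TCN1, a vitamin B12 binding protein, were raised by the shRNA and lowered by AZ628 too, with differences of 4.97, 5.66 and 4.11. CEMIP, a hyaluronan-degrading protein, had a difference of 6.54 that came mostly from AZ628 (-5.35, against 1.19 with the shRNA), and its other probe set gave 0.26.

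Another group of high differences came from the shRNA alone or nearly so. PRSS1, a trypsinogen, read 5.74, 6.12 and 6.06 with vehicle, 6.82, 6.72 and 6.78 with AZ628, 5.70, 5.79 and 5.87 with control shRNA and 12.01, 12.18 and 12.19 with IKKα shRNA. Only the IKKα shRNA arrays were far from the rest, and the difference was 5.54 (SE 0.15, adjusted p = 1.79e-14) beside a smaller rise of 0.80 with AZ628. Trypsinogen genes are near-identical, and the PRSS1 probe sets gave 0.35 to 5.54, so the gene behind the signal is uncertain. SPRR1B, a protein of the cornified envelope of squamous epithelium, rose by 5.32 with the shRNA and differed by 0.27 with AZ628 (adjusted p = 0.125). DHRS9, a dehydrogenase of retinol, rose by 3.93 with the shRNA and fell by 0.76 with AZ628. The reverse case was CXCR4, a chemokine receptor, which fell by 4.85 with AZ628 and differed by -0.21 with the shRNA (adjusted p = 0.279).

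The lowest differences were mostly genes that AZ628 raised and the shRNA lowered. GABRP, a GABA receptor subunit, read 9.03, 8.86 and 8.96 with vehicle, 11.47, 11.27 and 11.33 with AZ628, 9.77, 9.74 and 9.74 with control shRNA and 6.49, 6.39 and 6.69 with IKKα shRNA. The IKKα shRNA arrays were lowest and the AZ628 arrays highest without overlap of any groups, and the difference was -5.64 (SE 0.11, adjusted p = 2.18e-16). FABP1, the fatty acid binding protein of absorptive enterocytes, read 4.80, 4.67 and 4.66 with vehicle, 7.52, 7.57 and 7.48 with AZ628, 5.96, 6.04 and 5.95 with control shRNA and 4.15, 4.07 and 3.59 with IKKα shRNA. The order was the same, and the difference was -4.86 (SE 0.14, adjusted p = 3.56e-14). AZ628 also raised, and the shRNA lowered, PHGR1, a protein of gut epithelium, LGALS2, galectin 2, HGD, an enzyme of tyrosine breakdown, and RHOU, a small GTPase. Their differences were -5.61, -5.59, -4.94 and -4.25. In each of these 6 genes the control shRNA arrays were above vehicle, by 0.66 (HGD) to 2.88 (LGALS2). AZ628 raised LGALS2 by 1.57 over vehicle, so in that gene control shRNA and not AZ628 was highest. Set against vehicle like AZ628, the differences were -4.83 for GABRP, -3.59 for FABP1 and -2.72 for LGALS2, and all 6 still passed. NDRG1, a gene of stress and differentiation, had a low difference (-5.12) almost entirely through AZ628, which raised it by 4.70 while the shRNA lowered it by 0.42. Its 6 probe sets gave -5.12 to -1.43. UGT2B15, a glucuronidating enzyme with close relatives, rose with both, by 5.53 with AZ628 and 0.46 with the shRNA.

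Over all oppositely moved genes, 764 rose with the shRNA and fell with AZ628, and 1401 fell with the shRNA and rose with AZ628. Control shRNA was itself above vehicle in 530 of the 1401 (background 11.6%) and below it in 114 of the 764 (background 10.6%). With vehicle as the control of both, where the comparisons share the vehicle arrays, 631 of the 764 and 995 of the 1401 still moved oppositely.

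**Figure D2:**
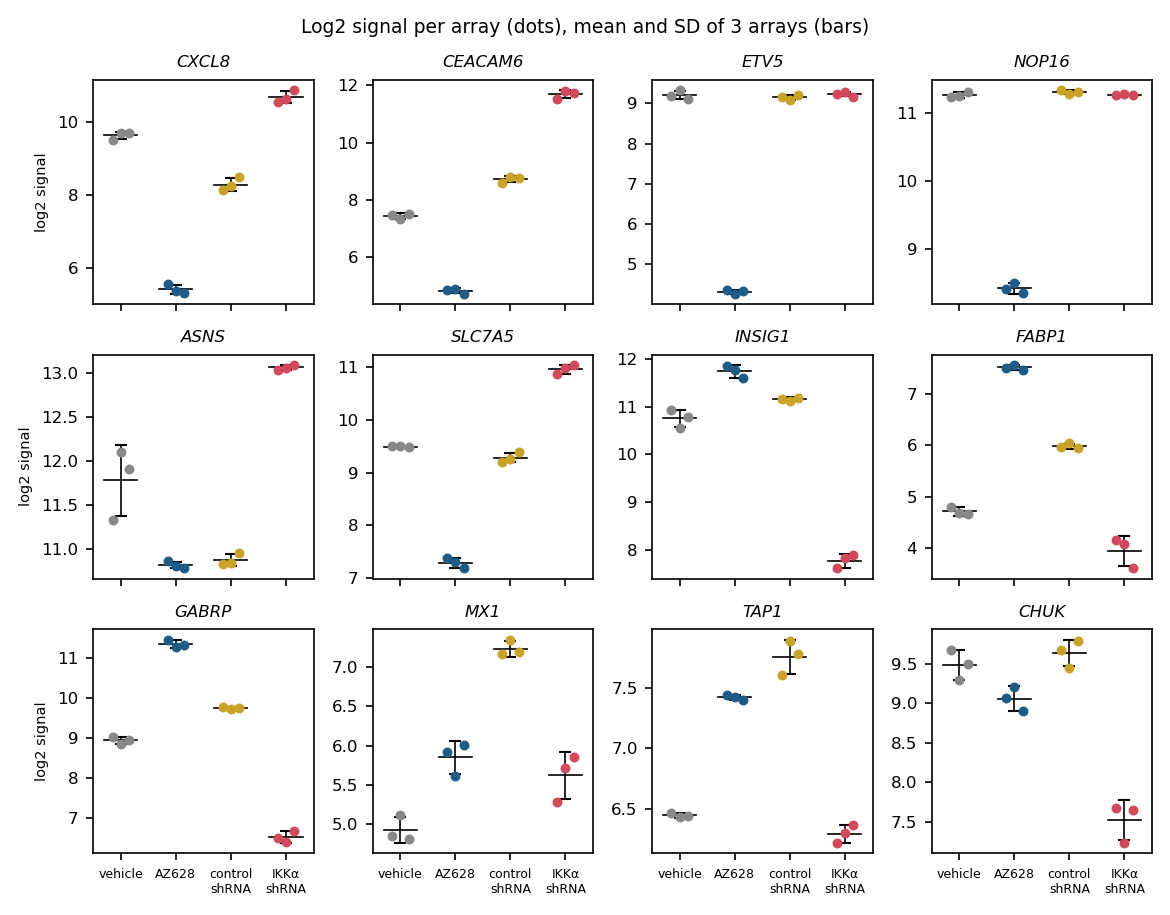
Log2 signal of 12 genes on each of the 12 WiDr arrays (dots), with the mean and SD of 3 arrays per group (bars) and a separate vertical scale for each gene. CXCL8, CEACAM6 and SLC7A5 are lowest with AZ628 and highest with IKKα shRNA, FABP1 and GABRP show the reverse order, and MX1 is highest with control shRNA.

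Direct output of the RAF pathway had the largest median difference of the lists by the reported probe sets. Of 18 measured genes driven by ERK, 17 were higher in the difference, against 20.1% of all genes, and 0 lower. The median difference of the list was 2.87, from a median change of -2.63 with AZ628 and 0.11 with the shRNA, and it was 1.63 over the 7 members with a probe set that binds 1 transcript. AZ628 lowered 17 of the 18, while the shRNA raised 8 and lowered 2. DUSP6, the phosphatase that switches ERK off, read 11.16, 10.99 and 11.01 with vehicle, 7.14, 6.40 and 7.19 with AZ628, 10.68, 10.65 and 10.48 with control shRNA and 10.65, 10.76 and 10.77 with IKKα shRNA. The AZ628 arrays lay far below the rest, and the IKKα shRNA arrays lay within or just above the control shRNA arrays. ETV5, an ETS factor, and MYC differed by 0.07 and -0.04 with the shRNA (adjusted p = 0.687 and 0.759), while with AZ628 ETV5 fell by 4.90 and MYC fell by 3.98. The 95% interval of the difference was 4.62 to 5.33 for ETV5 and 3.71 to 4.18 for MYC. DUSP5, a nuclear ERK phosphatase, and FOSL1, an AP-1 subunit, moved oppositely, with rises of 1.64 and 0.46 under the shRNA and falls of 2.70 and 1.66 under AZ628. EPHA4, the remaining list member, had a difference of -0.18 (adjusted p = 0.534).

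The EGF receptor family did not move as a block. Of 12 genes, 4 were higher and 4 lower, against 20.1% and 22.3% of all genes, and the median difference was 0.09. The ligand epiregulin, EREG, read 10.51, 10.55 and 10.46 with vehicle, 9.27, 9.17 and 8.89 with AZ628, 10.08, 10.06 and 10.01 with control shRNA and 11.88, 11.85 and 12.04 with IKKα shRNA. Its IKKα shRNA arrays were highest and its AZ628 arrays lowest, with a difference of 3.27 (SE 0.16, adjusted p = 2.34e-11). ERRFI1, an inhibitor of the receptor that ERK signalling induces, behaved in the same way (3.06). The receptors ERBB3 and ERBB2 had the opposite pattern. ERBB3 fell by 1.16 with the shRNA and rose by 1.26 with AZ628, and ERBB2 fell by 0.28 and rose by 0.89. The ERBB3 and ERBB2 probe sets ranged from -2.42 to -0.05 and from -1.64 to 0.17 in the difference.

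Growth machinery followed AZ628. Ribosome biogenesis genes make and process ribosomal RNA, and 26 of 27 were higher in the difference, with a median of 1.68. AZ628 lowered 26 of them (median -1.66), and the shRNA raised 3 and lowered 5 (median -0.08). NOP16, a nucleolar assembly factor, read 11.24, 11.26 and 11.32 with vehicle, 8.41, 8.50 and 8.34 with AZ628, 11.34, 11.29 and 11.31 with control shRNA and 11.28, 11.28 and 11.27 with IKKα shRNA. The 9 arrays without AZ628 lay within 11.24 to 11.34, and the difference was 2.82 (SE 0.08, adjusted p = 1.79e-14). Its 3 probe sets gave 0.03 to 2.89, and the call was lost with only probe sets that bind 1 transcript (adjusted p = 0.933), while both probe sets of LYAR, another nucleolar factor, gave 2.37 to 2.51. NOP2, an RNA methyltransferase, and POLR1A, the largest subunit of RNA polymerase I, rose with the shRNA, both by 0.44, and fell with AZ628 by 1.85 and 1.84. NPM1, nucleophosmin, was the member that did not pass (0.06, adjusted p = 0.662).

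Nucleotide synthesis gave 18 of 20 higher and 1 lower, with a median difference of 0.98, or 0.37 over the 5 members with a probe set that binds 1 transcript. CTPS1, which makes CTP, and CAD, which starts pyrimidine synthesis, fell by 3.25 and 2.38 with AZ628 and differed by -0.02 and -0.04 with the shRNA, neither past the threshold. PFAS, a purine enzyme, fell with both, by 2.25 and 0.38, and its 4 probe sets gave 0.18 to 1.88 in the difference. MTHFD2, the mitochondrial folate enzyme, split from them and read 12.15, 12.30 and 12.25 with vehicle, 10.85, 10.81 and 10.59 with AZ628, 11.82, 11.69 and 11.77 with control shRNA and 12.81, 12.89 and 12.97 with IKKα shRNA. Its IKKα shRNA arrays were highest, and it rose by 1.13 with the shRNA and fell by 1.48 with AZ628. Cytosolic ribosomal protein genes, by contrast, gave 4 of 25 lower and 0 higher (median -0.09), against 22.3% and 20.1% of all genes.

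Cell cycle genes were partly shared. AZ628 lowered all 30 of 30 DNA replication genes, and the shRNA lowered 20 of them and raised 0. All 20 genes that fell with the shRNA therefore fell in both comparisons, where 6.59% of all genes did. The sizes were unequal, with medians of -0.32 for the shRNA and -1.38 for AZ628, and 27 of 30 passed as higher in the difference (median 1.20, or 0.71 over the 9 members with a probe set that binds 1 transcript). MCM10, a DNA replication factor, read 8.93, 8.78 and 8.86 with vehicle and 6.34, 6.36 and 6.43 with AZ628. It read 8.75, 8.75 and 8.72 with control shRNA and 8.90, 8.70 and 8.93 with IKKα shRNA. The control and IKKα shRNA groups overlapped, and the AZ628 arrays lay far below. RRM1, a subunit of ribonucleotide reductase, read 11.06 ± 0.06 with IKKα shRNA against 11.70 ± 0.03 with its control, and 11.10 ± 0.06 with AZ628 against 11.51 ± 0.09 with vehicle (mean ± SD, n = 3). Here AZ628 and IKKα shRNA overlapped below both controls, with falls of 0.41 and 0.65 and a 95% interval of the difference of -0.45 to -0.03. LIG1, a DNA ligase, also fell with both and did not pass in the difference (0.22). Since these are bulk arrays, fewer cells in a phase of the cycle and less RNA per cell cannot be told apart.

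Mitotic genes were closer still. Of 25, 13 fell in both comparisons, the median difference was 0.25, and 0 differed by 2-fold or more, although 11 passed as higher. AURKA, the mitotic kinase Aurora A, fell by 0.37 with the shRNA and 0.32 with AZ628, with a 95% interval of the difference of -0.19 to 0.10. CDK1, the kinase that starts mitosis, was the member with the largest difference (0.92), since it fell by 0.83 with AZ628 and differed by 0.09 with the shRNA (adjusted p = 0.359), and its probe sets gave 0.30 to 0.99 in the difference.

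Genes of growth arrest went the other way. Of 21, 15 were lower in the difference, against 22.3% of all genes, and 5 higher, with a median of -0.98, or -0.57 over the 11 members with a probe set that binds 1 transcript. AZ628 raised 17 (median 1.32), while the shRNA raised 9 and lowered 7 (median 0.07). CDKN1C, the cell cycle inhibitor p57, read 6.68, 6.37 and 6.50 with vehicle, 8.48, 8.49 and 8.43 with AZ628, 6.97, 7.05 and 6.97 with control shRNA and 5.83, 6.42 and 6.15 with IKKα shRNA. AZ628 was highest, and the IKKα shRNA arrays lay below control shRNA and overlapped vehicle, with a difference of -2.81 (SE 0.16, adjusted p = 1.79e-10). CCNG2 and BCL6, both linked to quiescent cells, fell with the shRNA by 0.64 and 0.29 and rose with AZ628 by 1.62 and 1.74. Of 17 p53 targets, 11 were lower and 3 higher (median -0.75). SESN1, a stress-induced inhibitor of growth signalling, and RRM2B, a p53-induced ribonucleotide reductase subunit, fell with the shRNA (-0.87 and -0.60) and rose with AZ628 (2.15 and 0.82). TP53INP1 rose by 4.19 with AZ628 and differed by 0.04 with the shRNA (adjusted p = 0.84). With probe sets averaged the differences of TP53INP1, RRM2B and BMF were -1.95, -0.48 and -0.61, against -4.15, -1.42 and -1.93 by the reported probe set. Of 18 BCL2 family genes, 4 were higher in the difference and 8 lower (median -0.29), against 20.1% and 22.3% of all genes. AZ628 raised 9 of them and lowered 5. BMF, which promotes cell death, rose with both, by 3.14 with AZ628 and 1.21 with the shRNA. PMAIP1 (NOXA) and BID rose with the shRNA (0.68 and 0.41) and fell with AZ628 (-1.54 and -1.38).

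The amino acid response separated the treatments by direction. ATF4 is a transcription factor made when amino acids run short or the endoplasmic reticulum is stressed, and it raises amino acid synthesis, amino acid transporters and tRNA charging. Of 23 ATF4 targets, 19 were higher in the difference and 1 lower, with a median of 1.16. The shRNA raised 18 and lowered 0 (median 1.24), and AZ628 raised 5 and lowered 13 (median -0.39), so that 11 moved oppositely, against 11.9% of all genes. Control shRNA was below vehicle in 9 of the 23, against 10.6% of all genes. With vehicle as the control of both the median difference was 1.02, with 19 higher (background 22.7%) and 2 lower. ASNS, asparagine synthetase, read 11.33, 12.10 and 11.91 with vehicle, 10.86, 10.81 and 10.78 with AZ628, 10.83, 10.84 and 10.95 with control shRNA and 13.04, 13.06 and 13.10 with IKKα shRNA. Arrays with IKKα shRNA were highest, the AZ628 and control shRNA arrays overlapped, and vehicle lay between with a wide spread. Its difference was 3.16 (SE 0.18, adjusted p = 1.77e-10), or 2.25 with vehicle as the control of both. SLC7A5, a transporter of large amino acids, read 9.51, 9.50 and 9.48 with vehicle, 7.38, 7.30 and 7.18 with AZ628, 9.21, 9.26 and 9.39 with control shRNA and 10.87, 10.98 and 11.04 with IKKα shRNA. The groups did not overlap, and it rose by 1.68 with the shRNA and fell by 2.21 with AZ628. Its 2 probe sets gave 0.38 to 3.89 in the difference. TRIB3, a stress pseudokinase, and PSAT1, a serine synthesis enzyme, had differences of 3.25 and 2.81. DDIT4, an inhibitor of mTORC1, was raised by both, by 2.71 and 1.17, and its control shRNA arrays lay 0.96 below vehicle, so that its difference of 1.54 was 0.58 with vehicle as the control of both.

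Aminoacyl-tRNA synthetases, which load tRNAs with their amino acids, were higher in 15 of 15 cases (median 0.92). AZ628 lowered all 15, the shRNA raised 10 and lowered 1, and 10 moved oppositely. WARS1, YARS1 and IARS1, for tryptophan, tyrosine and isoleucine, rose with the shRNA by 0.64, 0.74 and 0.27 and fell with AZ628 by 1.25, 0.90 and 1.25. The 4 probe sets of WARS1 gave 0.40 to 2.08 in the difference. Classical unfolded protein response genes did not share this pattern. Of 20, 3 were higher and 6 lower (median -0.12), against 20.1% and 22.3% of all genes.

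ATF4 binds CARE elements, which join a C/EBP part to an ATF part. In the 250 bases before the RefSeq start (build GRCh38.p14) the letters TGATGNAA stood on either strand in 4 of the 19 ATF4 targets with a promoter (21.1%) and in 2 of 12 synthetases (16.7%), compared with 2.25% of 14425 promoters. A match is a description and no binding was measured. The following promoters show the match in capitals for ASNS (chr7:97872409-97872658 on the minus strand) and IARS1 (chr9:92293698-92293947 on the minus strand), a target and a synthetase that moved oppositely, written 5′ to 3′ along the gene.
ASNS: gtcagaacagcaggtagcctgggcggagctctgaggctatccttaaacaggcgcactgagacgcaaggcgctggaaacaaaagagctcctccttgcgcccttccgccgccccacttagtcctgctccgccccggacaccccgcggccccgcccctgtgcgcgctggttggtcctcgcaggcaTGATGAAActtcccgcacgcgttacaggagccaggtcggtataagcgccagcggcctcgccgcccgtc
IARS1: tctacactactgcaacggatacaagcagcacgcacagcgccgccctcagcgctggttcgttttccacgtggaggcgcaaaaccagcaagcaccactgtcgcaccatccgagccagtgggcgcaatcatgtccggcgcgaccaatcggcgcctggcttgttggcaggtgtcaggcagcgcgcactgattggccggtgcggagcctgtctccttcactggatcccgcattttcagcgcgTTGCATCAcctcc

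Sterol synthesis was lowered by the shRNA. SREBP-2 drives these genes when membrane sterol is low. Of 17 cholesterol genes, 16 were lower in the difference and 0 higher, with a median of -0.82. The shRNA lowered 16 (median -0.75), and AZ628 raised 7 and lowered 6 (median 0.15). The median difference was -0.10 over the 2 members with a probe set that binds 1 transcript. Control shRNA was above vehicle in 11 of the 17, against 11.6% of all genes. With vehicle as the control of both the median difference was -0.55, with 15 lower (background 28.9%) and 0 higher. INSIG1, a sterol-regulated brake on SREBP, read 10.93, 10.56 and 10.78 with vehicle, 11.87, 11.78 and 11.61 with AZ628, 11.18, 11.12 and 11.19 with control shRNA and 7.60, 7.82 and 7.89 with IKKα shRNA. The IKKα shRNA arrays lay far below all others and the AZ628 arrays above both controls, with a difference of -4.39 (SE 0.14, adjusted p = 1.42e-13). HMGCS1, an early enzyme of the pathway, read 9.67, 9.12 and 9.43 with vehicle, 9.61, 9.51 and 9.39 with AZ628, 10.12, 9.98 and 10.21 with control shRNA and 8.54, 8.65 and 9.05 with IKKα shRNA. Those with IKKα shRNA were again lowest, AZ628 overlapped vehicle, and the difference of -1.45 (SE 0.21, adjusted p = 1.51e-05) became -0.75 with vehicle as the control of both. The sterol response element TCACNCCAC was found in 0 of 16 promoters of the list, and in 0.887% of all. At so low a share, 0 of 16 cannot be told from the background. Fatty acid synthesis genes split, with 5 of 15 higher and 6 lower (median -0.01), against 20.1% and 22.3% of all genes. SCD, stearoyl-CoA desaturase, fell by 1.29 with the shRNA, and ELOVL6, which lengthens fatty acids, fell by 1.98 with AZ628.

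Interferon-stimulated genes gave a low difference that depended on the control. Of 21 genes, 17 were lower and 0 higher (median -1.24, or -0.52 over the 7 members with a probe set that binds 1 transcript), and 10 fell with the shRNA and rose with AZ628. MX1, an antiviral GTPase, read 4.85, 5.12 and 4.81 with vehicle, 5.92, 5.62 and 6.01 with AZ628, 7.16, 7.35 and 7.19 with control shRNA and 5.29, 5.71 and 5.86 with IKKα shRNA. The control shRNA arrays were the highest and vehicle the lowest, while AZ628 and IKKα shRNA overlapped. Control shRNA was above vehicle by 2.31 in MX1, by 1.75 in IFI44 and by 1.75 in IFIH1, a sensor of double-stranded RNA, and it was higher in 17 of the 21 (median 1.30). With vehicle as the control of both the median difference was -0.13, with 4 genes higher, where 22.7% of all genes were, and 6 lower. By that measure MX1 differed by -0.23, IFI44 by -1.25 and IFIH1 by -1.20, and only the MX1 call was lost (adjusted p = 0.142). The probe sets of IFI44 and IFIH1 ranged widely in the difference, from -2.99 to 0.01 and from -2.95 to -0.31. The part of the vector in this result was not tested.

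MHC class I genes present peptides to T cells. Of 13 MHC class I genes, 9 were lower and 1 higher (median -0.61), and control shRNA was above vehicle in 8, against 11.6% of all genes. The median was -0.38 with vehicle as the control of both, -0.30 with probe sets averaged and -0.06 over the 6 members with a probe set that binds 1 transcript. TAP1, a subunit of the peptide transporter, read 6.47, 6.43 and 6.44 with vehicle, 7.44, 7.42 and 7.40 with AZ628, 7.61, 7.89 and 7.78 with control shRNA and 6.21, 6.30 and 6.36 with IKKα shRNA. The IKKα shRNA arrays were lowest and AZ628 lay above vehicle, with a difference of -2.44 (SE 0.10, adjusted p = 1.25e-12), or -1.13 against vehicle alone. AZ628 raised 10 of the 13. PSMB9, an immunoproteasome subunit, rose by 1.26 with AZ628 and fell by 1.14 with the shRNA. Its probe sets gave -2.40 to -0.07 in the difference. HLA-B, a heavy chain, did not pass (-0.10, adjusted p = 0.547), and HLA probe sets can cross-hybridise.

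The interferon-stimulated response element (ISRE) is a short motif found before many interferon-stimulated genes, and its core GAAANNGAA was sought on both strands. It stood in 12 of 16 promoters of the interferon list (75.0%) and in 6 of 11 of the MHC class I list (54.5%), compared with 5.98% of all promoters. Shown with matches in capitals are IFI44 (chr1:78649539-78649788 on the plus strand), whose difference was -2.99, and TAP1 (chr6:32853705-32853954 on the minus strand), so that the element can be seen in a gene of each list.
IFI44: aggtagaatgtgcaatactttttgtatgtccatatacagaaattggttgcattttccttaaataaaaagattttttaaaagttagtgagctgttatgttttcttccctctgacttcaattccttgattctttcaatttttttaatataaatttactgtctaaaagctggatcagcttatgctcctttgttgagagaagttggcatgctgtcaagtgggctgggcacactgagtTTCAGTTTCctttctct
TAP1: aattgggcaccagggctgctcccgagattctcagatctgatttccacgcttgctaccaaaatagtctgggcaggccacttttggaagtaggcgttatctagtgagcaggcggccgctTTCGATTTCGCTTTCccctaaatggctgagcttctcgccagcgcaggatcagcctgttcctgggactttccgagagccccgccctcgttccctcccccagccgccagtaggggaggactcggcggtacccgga

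**Figure D3:**
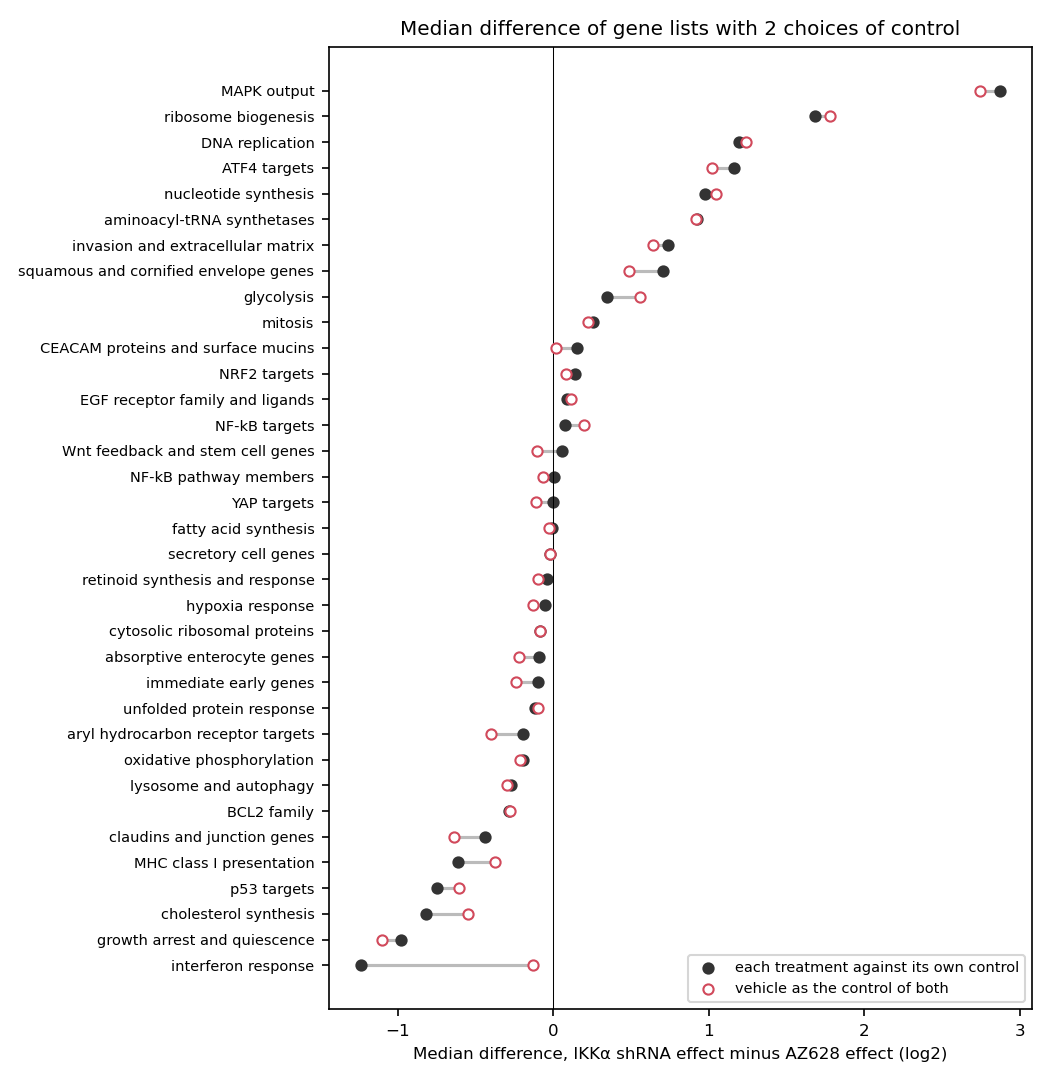
Median log2 difference of each gene list, with each treatment set against its own control (filled) and with vehicle as the control of both (open). The interferon list moved from -1.24 to -0.13 and the MAPK output list from 2.87 to 2.75.

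Epithelial identity also differed. Squamous genes are not part of the normal colon programme, and 12 of 20 were higher in the difference and 1 lower (median 0.71). The shRNA raised 10 and AZ628 raised 1. Beside SPRR1B, the protease inhibitor SERPINB7 rose by 4.27 and the keratin KRT13 by 1.74 with the shRNA, against -0.04 (adjusted p = 0.839) and -0.64 with AZ628. Invasion and matrix genes were higher in 15 of 22 and lower in 1 (median 0.74). PLAU, the urokinase that activates plasmin, read 4.84, 5.16 and 4.98 with vehicle, 4.75, 4.61 and 4.54 with AZ628, 5.28, 5.51 and 5.44 with control shRNA and 8.13, 8.02 and 7.82 with IKKα shRNA. All IKKα shRNA arrays stood above all others, with a difference of 2.94 (SE 0.15, adjusted p = 3.71e-11), though its probe sets gave 0.12 to 2.94. TNC, tenascin C, rose by 1.52 with the shRNA and fell by 0.49 with AZ628.

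Junction genes had the reverse sign. Of 18 claudin and junction genes, 12 were lower and 2 higher (median -0.44). Only 2 members had a probe set that binds 1 transcript. Their median was 0.21 by those probe sets and 0.20 by the reported ones. CLDN3, a barrier claudin, read 9.17, 8.95 and 8.92 with vehicle, 9.99, 9.99 and 9.95 with AZ628, 9.49, 9.67 and 9.70 with control shRNA and 8.18, 8.17 and 8.27 with IKKα shRNA. The IKKα shRNA arrays were lowest, AZ628 highest and no groups overlapped, with a difference of -2.38 (SE 0.10, adjusted p = 2.80e-12). CGN (cingulin) and OCLN (occludin), both of the tight junction, fell with the shRNA by 0.60 and 0.37 and rose with AZ628 by 1.57 and 1.63. Absorptive enterocyte genes were mixed, with 3 of 24 higher and 9 lower (median -0.09), against 20.1% and 22.3% of all genes. FABP1 and VIL1 (villin of the brush border, -2.14, with probe sets at -2.14 to -0.61) were low, while MALL, a membrane trafficking protein, was high at 4.35. SI, sucrase-isomaltase, rose by 2.99 with AZ628 and differed by 0.02 with the shRNA (adjusted p = 0.946). Secretory genes showed more in common. Of 21, 6 fell in both comparisons, where 6.59% of all genes did. In the difference 3 were higher and 5 lower (median -0.02), against 20.1% and 22.3% of all genes. Among the 6 was AGR2, a protein disulfide isomerase of mucus cells, which fell by 1.15 and 1.29. REG4, a secreted lectin of these cells, fell by 3.07 with the shRNA and 1.33 with AZ628 and passed in the difference (-1.75, or -0.66 with vehicle as the control of both). The stem cell receptor LGR5 fell with AZ628 by 3.59 and differed by -0.24 with the shRNA (adjusted p = 0.333). Its list of 17 Wnt feedback and stem cell genes did not follow it. There 2 were higher in the difference and 7 lower (median 0.05), against 20.1% and 22.3% of all genes. AZ628 raised 5 of the 17 and lowered 3. With probe sets averaged the differences of SI and LGR5 were -1.61 and 1.97, against -2.98 and 3.35 by the reported probe set.

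NF-κB genes gave no common direction. Of 19 targets, 6 were higher and 6 lower (median 0.08). Of 15 pathway members, 3 were higher and 5 lower (median 0.01). Over all genes 20.1% were higher and 22.3% lower. Chemokines and PTGS2, the prostaglandin synthase COX-2, were on the high side. PTGS2 read 6.69, 6.61 and 7.01 with vehicle, 5.74, 5.43 and 5.59 with AZ628, 7.48, 7.36 and 7.45 with control shRNA and 9.78, 9.74 and 9.89 with IKKα shRNA. No groups overlapped, and the difference was 3.56 (SE 0.18, adjusted p = 3.48e-11). CXCL1 and CXCL3, chemokines related to CXCL8, rose with the shRNA by 0.61 and 1.11 and fell with AZ628 by 2.19 and 1.43. For CXCL1 the IKKα shRNA arrays stayed below vehicle, since control shRNA was 0.95 lower than vehicle. The feedback inhibitor NFKBIA (IκBα) read 9.30 ± 0.01 with IKKα shRNA against 9.71 ± 0.12 with its control, and 9.95 ± 0.05 with AZ628 against 9.59 ± 0.06 with vehicle (mean ± SD, n = 3). It was lowest with IKKα shRNA and highest with AZ628, while the controls overlapped, and the difference was -0.77 (SE 0.09, adjusted p = 2.34e-06). NFKB1, which encodes p105 and p50, fell by 0.50 with the shRNA and rose by 0.15 with AZ628. RELA differed by 0.11 and -0.10, neither past the threshold (adjusted p = 0.273 and 0.327).

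Energy metabolism followed AZ628 in part. Of 18 glycolysis genes, 12 were higher and 1 lower (median 0.35), against 20.1% and 22.3% of all genes. The glucose transporter SLC2A1 read 11.19, 11.15 and 11.13 with vehicle, 9.36, 9.27 and 9.18 with AZ628, 11.28, 11.43 and 11.37 with control shRNA and 12.17, 12.25 and 12.42 with IKKα shRNA. AZ628 was lowest and IKKα shRNA highest, with a difference of 2.81 (SE 0.10, adjusted p = 6.25e-13). HK2, which traps glucose in the cell, fell by 2.80 with AZ628 and differed by -0.22 with the shRNA (adjusted p = 0.0501), and its 2 probe sets gave -0.04 to 2.58 in the difference. VEGFA, the vascular growth factor, rose by 1.33 with the shRNA and fell by 0.31 with AZ628, while BNIP3L, a mitophagy receptor, fell by 0.48 and rose by 1.43. Oxidative phosphorylation genes gave 5 of 24 higher and 13 lower, against 20.1% and 22.3% of all genes, with a small median of -0.19. Lysosome and autophagy genes shared a direction more than a size. Of 21, 12 were higher in both, where 5.80% of all genes were, and 2 lower in both. In the difference 11 were lower and 3 higher (median -0.27), against 22.3% and 20.1% of all genes, and 0 moved alike. The median difference was -0.01 over the 7 members with a probe set that binds 1 transcript. Over all 21 the median change was 0.33 with the shRNA and 0.56 with AZ628. NEU1, lysosomal neuraminidase, rose by 0.56 and 1.66, and LAMP1, a lysosomal membrane protein, by 0.33 and 0.20.

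**Figure D4:**
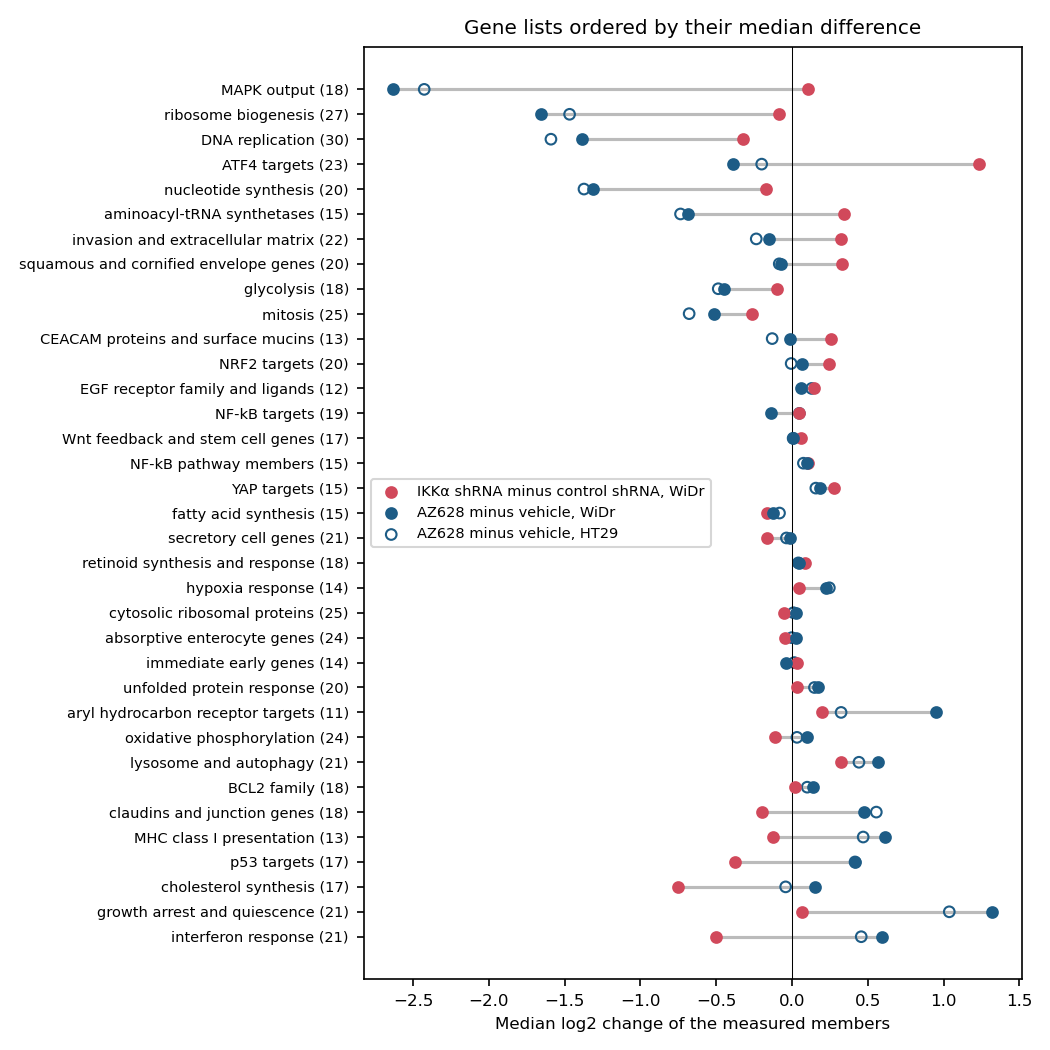
Median log2 change of each gene list with IKKα shRNA (red), with AZ628 in WiDr (filled blue) and with AZ628 in HT29 (open blue), ordered by the median difference, with the number of measured genes in brackets. MAPK output lies at -2.63 with AZ628 and 0.11 with the shRNA, and ATF4 targets lie at -0.39 and 1.24.

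A failure to pass in the difference does not show that changes were alike. Genes were therefore said to have moved alike when they passed in both comparisons in the same direction, changed at least 1.5-fold in each, and had a 95% interval of the difference inside 1.5-fold either way. Of all genes, 94 moved alike upwards (0.518%) and 93 downwards (0.513%), or 8.32% of those with the same direction in both. AZ628 also raised 91 of the 94 in HT29 (background 22.5%) and lowered 86 of the 93 (background 21.0%). The rule used no HT29 means, but the HT29 arrays entered the model's spread and so its p-values and intervals. Since the genes were chosen for passing with AZ628 in WiDr, the background over all genes is not a matched comparison. The HT29 counts repeat the AZ628 change and do not test likeness to the shRNA. HT29 and WiDr are closely related lines.

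SERPINI1, neuroserpin, read 5.33, 5.28 and 5.28 with vehicle, 8.58, 8.69 and 8.60 with AZ628, 4.96, 4.93 and 5.04 with control shRNA and 8.14, 8.22 and 8.06 with IKKα shRNA. Both treated groups lay far above both controls, with rises of 3.16 and 3.32 and a 95% interval of the difference of -0.38 to 0.05. The aldo-keto reductases AKR1C1 and AKR1C2, which reduce steroids and reactive carbonyls, rose by 2.19 and 2.22 with the shRNA and by 2.27 and 2.07 with AZ628. These genes are near-identical and may share signal. TIMP2, an inhibitor of matrix proteases, rose by 1.88 and 1.70. These 3 genes did not stay within 1.5-fold in every alternative of the closing section. The difference ran from -0.22 to 0.94 for AKR1C1, -0.13 to 0.96 for AKR1C2 and -0.04 to 0.64 for TIMP2. LOXL4, a lysyl oxidase, rose by 2.13 and 2.08 in WiDr and differed by -0.30 with AZ628 in HT29. Of 11 aryl hydrocarbon receptor targets, 3 rose with both (background 5.80%) and 4 moved oppositely (background 11.9%). In the difference 3 were higher and 6 lower (median -0.19), against 20.1% and 22.3% of all genes. CYP1A1, which oxidises aromatic compounds, rose by 3.45 with the shRNA and 7.07 with AZ628. TIPARP, another target of that receptor, moved alike (0.79 and 0.95).

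Downwards, TRIM7, a ubiquitin ligase, read 8.97, 8.74 and 8.70 with vehicle, 6.78, 6.70 and 6.84 with AZ628, 9.18, 9.24 and 9.19 with control shRNA and 7.21, 6.97 and 7.29 with IKKα shRNA. Both treated groups lay below both controls, and the falls were 2.05 and 2.03. TESC, a calcium-binding protein, fell by 1.64 and 2.02, a difference that passed (0.39, adjusted p = 8.66e-04) while its interval stayed inside 1.5-fold. ADRA2A, an adrenergic receptor, fell by 1.64 and 1.81, and PAPSS2, which makes the sulfate donor of the cell, by 1.62 and 1.62. Control shRNA was above vehicle in 46 of the 93 genes (background 11.6%), PAPSS2 among them by 0.81. With vehicle as the control of both, where the comparisons share the vehicle arrays, 59 of the 94 genes up and 46 of the 93 down still moved alike. By that measure TRIM7, PAPSS2 and LOXL4 passed as different with a reversed sign (0.38, 0.80 and -0.29). SERPINI1 passed as well, without a change of sign (-0.49).

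**Figure D5:**
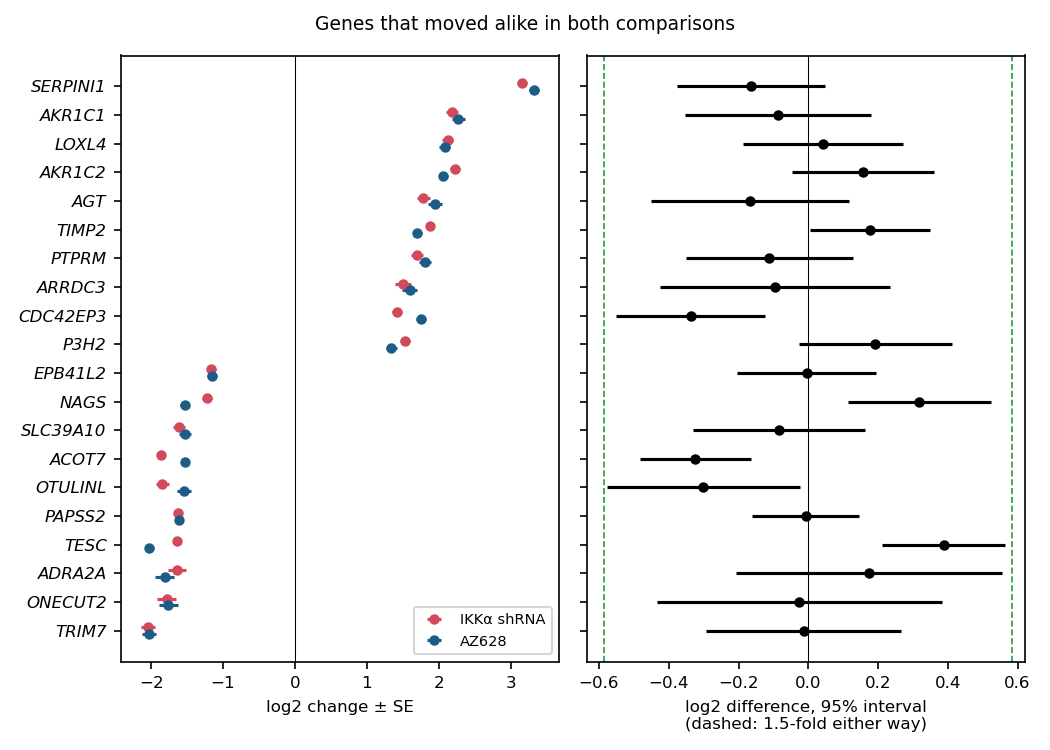
Left, log2 change (± SE) with IKKα shRNA (red) and AZ628 (blue) of the 10 genes up and 10 down that moved alike with the largest changes. Right, their difference with its 95% interval, which lies inside the dashed lines at 1.5-fold for each gene, as the rule required.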

How the data were processed

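The deposited values are log2 signals of probe sets. The authors used RMA, and the submitters' processing notes list limma and R 3.0.2 besides. Of 49395 probe sets, 44994 had 1 gene symbol in the platform annotation, 1832 several and 2569 none. For each of 18132 genes the probe set of highest mean over all arrays was kept. A linear model of 6 groups was fitted to all 18 arrays in R 4.3.3 with limma 3.58.1, eBayes and Benjamini-Hochberg adjustment over all genes. Adjusted p-values are two-sided and come from limma. A set of 40 gene lists (718 of 783 entries measured) was written from textbook knowledge, and members and lists were chosen with earlier results of these data known. The rule for named genes took the 12 highest and 12 lowest passing differences with treated arrays all on 1 side of control, the 8 largest opposite and 10 largest alike changes each way, from every list up to 4 members that pass and 2 that do not, and some pathway genes. Provisional and non-coding loci were passed over, and not all genes are printed. Promoters came from RefSeq, and motif letters were shortened after a first search. The letters CACGTG (E-box) were sought too. They stood in 1 of 21 ribosome biogenesis promoters (4.76%) and 4 of 17 of nucleotide synthesis (23.5%), against 7.83% of all. On simulated data with 100 genes changed at each size among 18132, the test of the difference recovered 66% at 1.5-fold and 92% at 2-fold, with 10 false calls. Figures were drawn with matplotlib 3.10.9. The alternatives tried are named in the closing section.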

Additional observations from a re-analysis of the deposited data

Results flagged for a closer look

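The AZ628 change that enters the difference was not the same in HT29 for 15 of the named genes, by at least 2-fold in a limma test of the AZ628 change in HT29 minus that in WiDr (adjusted p from 3.09e-10 to 0.00132, n = 3 arrays per group). NNMT, a gene with one of the highest differences, had the largest gap: NNMT (3.76, from -3.78 in WiDr to -0.02 in HT29). The falls of CXCL8, CXCL1 and LGR5 were smaller in HT29: CXCL8 (2.12, from -4.23 in WiDr to -2.11 in HT29), CXCL1 (1.60, from -2.19 in WiDr to -0.59 in HT29) and LGR5 (1.41, from -3.59 in WiDr to -2.19 in HT29). PTGS2 changed sign, PTGS2 (1.89, from -1.18 in WiDr to 0.71 in HT29). The rises of SI, LGALS2 and PRSS1 were larger in HT29: SI (2.15, from 2.99 in WiDr to 5.14 in HT29), LGALS2 (1.30, from 1.57 in WiDr to 2.87 in HT29) and PRSS1 (1.03, from 0.80 in WiDr to 1.83 in HT29). Smaller rises in HT29 were found for GABRP (-1.10, from 2.41 in WiDr to 1.31 in HT29), HGD (-1.10, from 2.94 in WiDr to 1.84 in HT29), NDRG1 (-1.07, from 4.70 in WiDr to 3.63 in HT29), UGT2B15 (-1.06, from 5.53 in WiDr to 4.48 in HT29) and AKR1C1 (-1.03, from 2.27 in WiDr to 1.24 in HT29). LOXL4 and SPRR1B were lower than their WiDr change: LOXL4 (-2.39, from 2.08 in WiDr to -0.30 in HT29) and SPRR1B (-1.07, from 0.27 in WiDr to -0.80 in HT29). No shRNA arrays of HT29 were analysed here, so the difference itself was not measured in that line.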

How the results depend on the processing

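The 9 counts of genes stayed within 1.5 times of the reported values, though not always over the same genes, when probe sets were averaged, when the dimmest 25% of genes were left out, with quantile normalization again, with the 12 WiDr arrays alone, with trend and robust settings of eBayes, with the AZ628 change taken from HT29, with vehicle as the control of both treatments, and without each of the 12 arrays in turn. Without 1 array 3450 to 3661 genes were higher and 3834 to 4013 lower, 886 to 937 and 1233 to 1290 at least 2-fold, 1946 to 2105 moved oppositely, and no named gene lost its call. With vehicle as the control of both, 2148 of the 2168 differences of at least 2-fold passed with the same sign. Counts fell with only probe sets that bind 1 transcript, where 8356 genes were tested. There 1196 genes were higher and 1171 lower, 348 and 366 at least 2-fold, 282 and 343 were higher and lower in both, 601 moved oppositely, and 25 moved alike up and 41 down. In that setting the median difference was 0.21 for claudins and junction genes (2 members) and 0.063 for the BCL2 family (10 members). The full lists had negative medians. By the reported probe sets the same members gave 0.20 and -0.10. List medians in this setting cover fewer members, so probe sets and members both changed. Of the other list medians 25 moved by more than their spread between arrays, among them MAPK output to 1.63 (7 members), DNA replication to 0.71 (9 members), nucleotide synthesis to 0.37 (5 members), growth arrest to -0.57 (11 members), the interferon response to -0.52 (7 members), MHC class I to -0.06 (6 members) and cholesterol synthesis to -0.10 (2 members). The adjusted p of the lost calls there ran from 0.0763 to 0.933. With vehicle as the control of both, differences reversed for LOXL4 (-0.29), PAPSS2 (0.80) and TRIM7 (0.38). In that setting 6 other named genes newly passed without a change of sign, SERPINI1 among them (-0.49). With the AZ628 change from HT29 the differences reversed for AKR1C1 (0.94), SERPINI1 (0.47) and TESC (-0.025), and 8 other named genes newly passed. The cause was not tested.

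The labels give the groups the same replicate numbers. Same-numbered arrays deviated from their group means with correlations of -0.28 to 0.25, so the numbers were not taken as pairs. With the replicate number as a block 3623 genes were higher and 3977 lower, and no call of a named gene changed.

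Because RMA gives all arrays the same distribution, a shift common to most transcripts would not be seen. It also compresses dim signals, so the folds of dim genes can be understated. The 3 arrays of a group limit the precision.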
